A study of Mus musculus with 13 samples.

Results

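The nuclear-encoded genes of the mitochondrial respiratory chain and ATP synthase were examined in cultured mouse skeletal muscle cells. They were chosen by name, as every row of the count table whose symbol begins with Ndufa, Ndufb, Ndufs, Ndufv, Uqcr, Cox followed by a digit from 4 to 8, or Atp5, leaving out the Ndufaf assembly factors. This gave 79 of 23366 genes, of which 76 of 16537 passed the filter on low counts and were tested. By role they were 34 subunits of complex I, 8 of complex III, 18 of complex IV and 15 of complex V. The other 4 carry a matching name but are not subunits of a complex. These are Cox7a2l, an assembly factor of respiratory supercomplexes, Ndufa4l2, a hypoxia-induced relative of Ndufa4, and Atp5s and Atp5sl. The 3 members that were not tested were Cox8c with 0 counts over all libraries, Cox7b2 with 1 and Ndufs5 with 2.

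Complex I takes electrons from NADH, complex III passes them to cytochrome c, complex IV (cytochrome c oxidase) hands them to oxygen, and complex V (ATP synthase) uses the proton gradient these build to make ATP. Most subunits are encoded in the nucleus, and complex IV has subunits in alternative isoforms, one ubiquitous and one for heart and skeletal muscle: Cox6a1 and Cox6a2, Cox7a2 and Cox7a1, Cox8a and Cox8b. Muscle fibres raise their content of these complexes as they mature, and the muscle isoforms are used as signs of that maturation.

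The data were RNA-seq counts per gene from 13 libraries of primary cells from hind limb muscle of pups at postnatal day 2 to 3, of mixed strain. The groups were dICR/dICR myoblasts (n = 2), wild-type myoblasts (n = 4), dICR/dICR myotubes (n = 2) and wild-type myotubes (n = 5), and myotubes were cells held for 24 h in medium with 1% horse serum. The dICR/dICR cells carry, on both parental chromosomes, a deletion of the imprinting control region between Igf2 and H19. H19, the long noncoding RNA beside the deletion, was at 52.4 to 71.5 CPM (the count divided by the library total, with TMM scaling) in the 4 dICR/dICR libraries and at 2345 to 40495 CPM in the 9 wild-type libraries. The labels do not say that replicates were separate cultures or animals, so p-values measure the spread between these samples, which may be technical.

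Library totals fell in a deep set of 7 libraries with 35.56 to 56.44 M counts and a shallow set of 6 with 5.31 to 10.91 M. Both dICR/dICR myoblasts were shallow and both dICR/dICR myotubes were deep, while wild-type myoblasts 1 and 2 and wild-type myotubes 1 to 3 were deep and the other 4 wild-type libraries shallow. The labels name an Illumina and a SOLiD platform without saying which library was run on which. The libraries also differed in 2 further ways that touch the results. The summed level of 8 myotube markers was 2723 and 1450 CPM in dICR/dICR myoblasts 1 and 2, against 2051, 2033, 9570 and 10116 CPM in wild-type myoblasts 1 to 4, and it was 8282 and 15146 CPM in dICR/dICR myotubes against 20037 to 39132 CPM in wild-type myotubes. The Y-linked gene Ddx3y lay between 0.153 and 0.462 CPM in wild-type libraries of the shallow set (4) and between 14.5 and 176 CPM in the other 9, and the labels do not give the sex of the pups. Among markers of other cells, the defining adipocyte, endothelial, Schwann cell and erythroid lists summed to at most 3.13, 2.62, 8.42 and 4.40 CPM in any library, and macrophage markers to at most 11.7 CPM. The 5 smooth muscle and pericyte markers summed to 1022 to 2277 CPM in dICR/dICR myotubes, against 2158 to 4486 CPM in wild-type myotubes, and the 8 fibroblast markers to 93.4 to 186 CPM against 180 to 890 CPM. In dICR/dICR myotubes 3 of the 5 and 7 of the 8 were under 1 CPM in every library, and in wild-type myotubes 0 and 5. In myoblasts the smooth muscle and pericyte sum was 112 to 284 CPM in dICR/dICR and 82.5 to 395 CPM in wild type. Both sums overlapped between genotypes, in myotubes as in myoblasts. Fewer cells of a type and less RNA per cell cannot be told apart in such bulk samples.

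The promoters of 6 members on which the results below turn are shown as the 250 bases before the RefSeq start (build GRCm38.p6), 5′ to 3′ on the strand of the gene. Capitals mark matches, on either strand, to the E-box (CANNTG, bound by MyoD and myogenin), the NRF-1 site (GCGCA and GCGC on either side of any base, for nuclear respiratory factor 1), the GABP site (CCGGAAG, the Ets factor also called NRF-2) and the MEF2 site (CTA and TAG with any 4 bases between them). The first pair are the muscle isoform gene Cox7a1, at chr7:30183921-30184170 on the plus strand, and its ubiquitous partner Cox7a2, at chr9:79759854-79760103 on the minus strand.
Cox7a1: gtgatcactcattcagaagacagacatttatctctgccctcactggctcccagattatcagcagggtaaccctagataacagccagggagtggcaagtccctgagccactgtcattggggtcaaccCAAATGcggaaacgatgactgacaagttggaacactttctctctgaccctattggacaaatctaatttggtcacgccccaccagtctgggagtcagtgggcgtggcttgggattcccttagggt
Cox7a2: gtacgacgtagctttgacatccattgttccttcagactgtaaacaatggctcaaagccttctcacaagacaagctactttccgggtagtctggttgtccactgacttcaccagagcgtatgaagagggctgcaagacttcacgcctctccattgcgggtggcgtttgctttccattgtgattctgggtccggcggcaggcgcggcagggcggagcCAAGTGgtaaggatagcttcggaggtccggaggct
The second pair are Cox8b, the muscle isoform, at chr7:140900447-140900696 on the minus strand, and the ubiquitous Cox8a, at chr19:7217617-7217866 on the minus strand.
Cox8b: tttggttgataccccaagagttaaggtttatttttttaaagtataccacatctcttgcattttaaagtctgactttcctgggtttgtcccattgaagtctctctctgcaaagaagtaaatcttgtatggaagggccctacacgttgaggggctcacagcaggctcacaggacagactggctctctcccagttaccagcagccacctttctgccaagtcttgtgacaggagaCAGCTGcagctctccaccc
Cox8a: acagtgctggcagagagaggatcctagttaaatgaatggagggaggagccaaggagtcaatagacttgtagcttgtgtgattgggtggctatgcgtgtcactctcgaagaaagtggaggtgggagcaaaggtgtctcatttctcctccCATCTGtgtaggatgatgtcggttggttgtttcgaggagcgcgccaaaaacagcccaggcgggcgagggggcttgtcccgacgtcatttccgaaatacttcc
The last pair hold NRF-1 matches, with Cox6a1 at chr5:115348959-115349208 on the minus strand and the complex I gene Ndufb4 at chr16:37654369-37654618 on the minus strand.
Cox6a1: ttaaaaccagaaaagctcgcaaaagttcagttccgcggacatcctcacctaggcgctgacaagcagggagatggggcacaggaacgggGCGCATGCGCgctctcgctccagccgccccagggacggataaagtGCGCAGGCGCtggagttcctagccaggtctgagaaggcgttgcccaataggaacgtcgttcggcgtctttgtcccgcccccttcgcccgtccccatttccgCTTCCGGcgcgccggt
Ndufb4: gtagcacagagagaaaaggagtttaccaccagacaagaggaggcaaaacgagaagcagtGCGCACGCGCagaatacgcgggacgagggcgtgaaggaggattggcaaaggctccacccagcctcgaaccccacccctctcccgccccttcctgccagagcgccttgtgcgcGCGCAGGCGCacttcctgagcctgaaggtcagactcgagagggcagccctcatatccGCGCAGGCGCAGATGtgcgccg

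Each of the 4 promoters of the isoform pairs Cox7a1 and Cox7a2, and Cox8b and Cox8a, held 1 E-box and no match to the other motifs. The E-box of Cox8b began 19 bases before the start, that of Cox7a1 124 bases, that of Cox7a2 35 bases and that of Cox8a 102 bases. Cox6a1 had NRF-1 matches 162 and 117 bases and a GABP match 16 bases before its start. Ndufb4 had NRF-1 matches beginning 191, 79 and 22 bases before its start, and the last of these overlapped an E-box that began at 13 bases. Over the 65 members with a promoter in the RefSeq table, 16.9% held an NRF-1 match against 4.2% of 27025 genes, and 16.9% held a GABP match against 7.8%. An E-box was found in 66.2% of the members against 69.3% of all genes, and a MEF2 match in 1.5% against 3.7%. That 1 member was Cox5b, a regulatory subunit of complex IV. These matches describe the letters only.

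More of these genes differed between the shallow and deep libraries than between genotypes or stages in any comparison below. With depth set added to the 4 group means, the shift is estimated from the wild-type libraries, and 37 of 76 members were called at an adjusted p under 0.05 (edgeR quasi-likelihood, Benjamini-Hochberg over all genes), where 28.6% of all genes were called. Of these members 15 were higher in shallow libraries and 22 were lower, against 12.7% of all genes higher and 15.9% lower. Cox7c, a small ubiquitous subunit of complex IV, was at 3.87 to 11.7 CPM in the 6 shallow libraries, against 195 to 326 CPM in the 7 deep ones, a log2 difference of -4.89 ± 0.28 (SE). Atp5l, the g subunit of ATP synthase, was at 4.93 to 8.76 CPM in shallow libraries against 181 to 277 CPM in deep ones (-4.84 ± 0.22). The sets do not overlap for either gene, and wild-type cells, which have libraries in both sets, showed the gap at each stage. Atp5g1, Atp5g2 and Atp5g3 encode the same c subunit of the rotor ring, and shifted by different amounts. Atp5g2 was at 4.61 to 8.21 CPM in shallow and 122 to 189 CPM in deep libraries (-4.76 ± 0.21). Atp5g1 differed by -2.64 ± 0.15, and Ndufb4, whose promoter is shown above, by -3.32 ± 0.27. Atp5g3 had similar levels in both sets, at 279 to 379 CPM in shallow and 326 to 494 CPM in deep libraries. Among those higher in shallow libraries were Cox8b at 1.63 ± 0.31, the complex I subunits Ndufb8 at 1.15 ± 0.13 and Ndufa10 at 0.98 ± 0.14, and Ndufv1, the NADH-binding core subunit, at 1.03 ± 0.23.

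**Figure D1:**
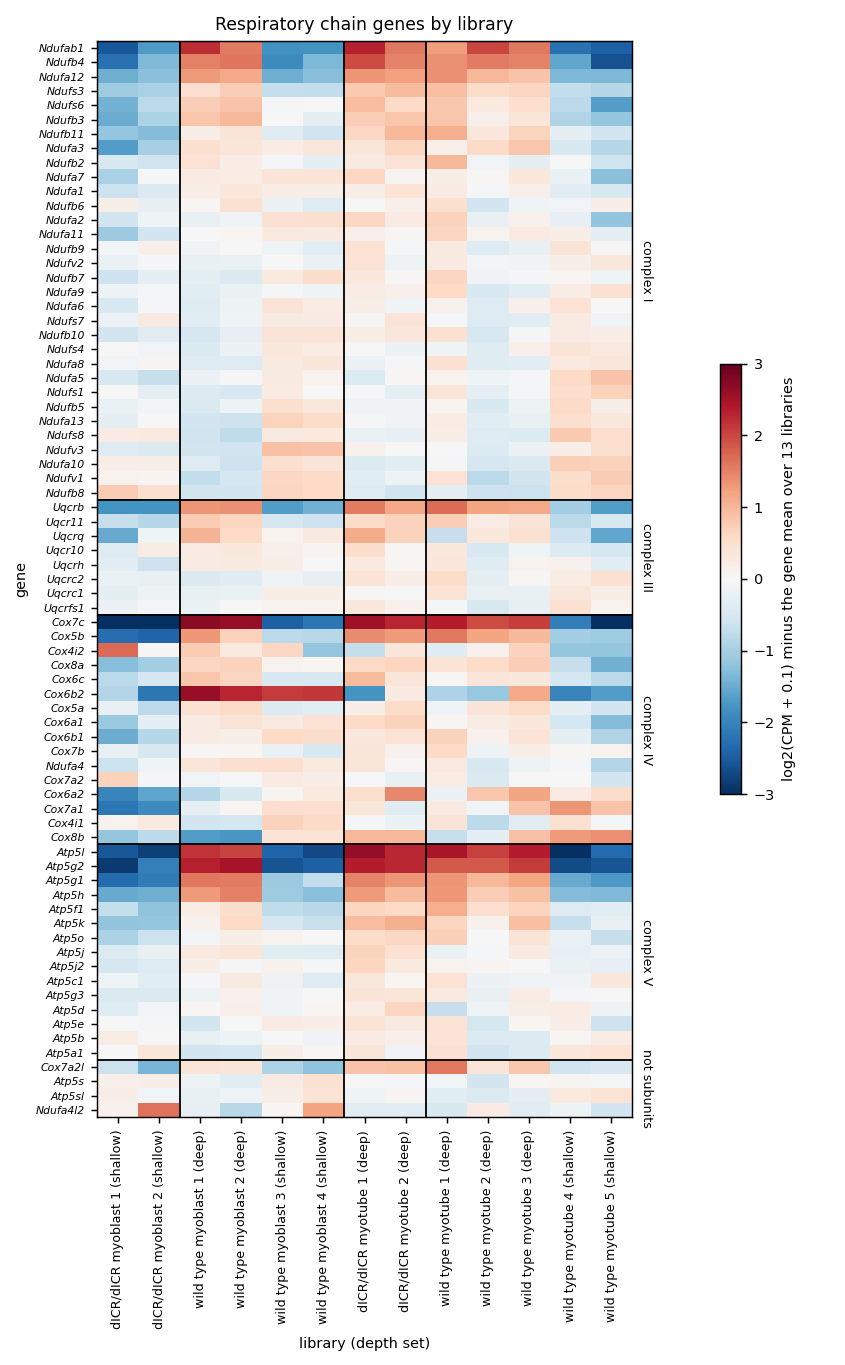
Heat map of 75 of the 76 tested respiratory chain genes (rows, by complex, ordered by their shift between depth sets) in 13 libraries (columns, by group, with the depth set in brackets). Colour is log2(CPM + 0.1) minus the mean of the gene over the libraries. Rows such as Cox7c, Atp5l and Atp5g2 are low in all 6 shallow libraries, the dICR/dICR myoblasts among them, and high in all 7 deep ones.

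The shift went with how much of a gene's transcript sequence also occurs in other genes. Shared 35-base words were those found in transcripts of another annotated gene or pseudogene. Symbols made of the gene's own symbol and a hyphen, as for some of its pseudogenes, were left out. The shares may therefore be too low. The share had a median of 25% in the 22 members lower in shallow libraries, of which 20 were over 10%. It had a median of 0% in the 15 members that were higher, of which 2 were over 10%, and 1.9% in the 39 not called, of which 6 were over 10%. Across the 76 members, which share the same libraries, Pearson's r of shift with shared sequence was -0.63 and Spearman's rho was -0.57, given as a description. Atp5l had 85.3% shared words and Atp5g2 39.8%, whereas Cox8a had 0% and a shift of -1.13 ± 0.22, and Atp5o, the stalk subunit OSCP, had 54.1% and was not called. Reads of the 28 tested members with over 10% shared words may also match copies, so their counts are uncertain. Ndufs5, which had too few counts to be tested, had 25.5% shared words, and its low count is uncertain too. The alignments were not examined, and the part of shared sequence in the shift was not tested.

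**Figure D2:**
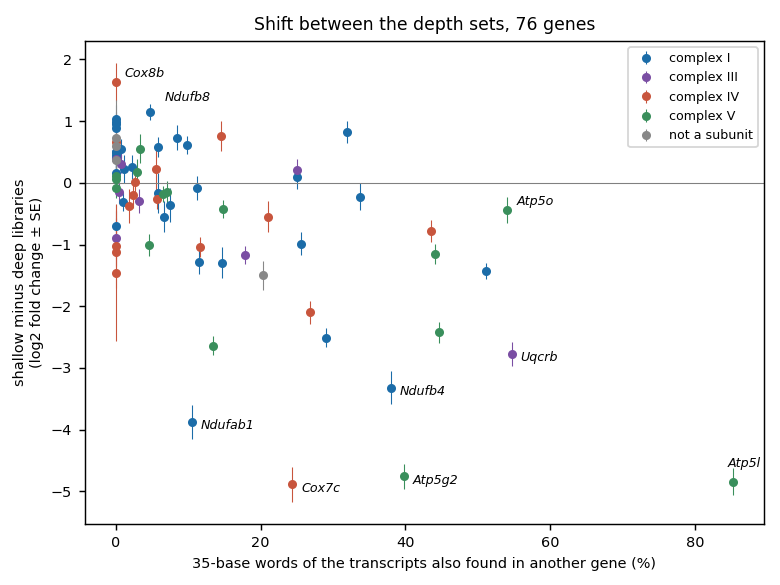
Difference between shallow and deep libraries (log2 fold change with its SE, from the fit with depth set as a term) against the percentage of 35-base transcript words shared with another gene, 1 point per gene (76), coloured by complex. The points furthest below 0, Cox7c, Atp5l and Atp5g2, have 24.4, 85.3 and 39.8% shared words, and the points above 0 lie mostly at 0%.

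The first comparison sets dICR/dICR against wild-type cells as growing myoblasts. Where libraries of like depth were compared, complex IV and accessory complex I genes were among 10 members that were lower in dICR/dICR myoblasts (5.25% of all genes called). No member was called when all libraries of a group entered its mean. A negative log2 fold change was seen in 60 of 76 members and 8851 of 16537 genes, with medians of -0.57 and -0.06. Both dICR/dICR myoblasts were shallow and wild-type myoblasts 1 and 2 deep. Genotype and depth set therefore cannot be fully told apart in values over all libraries. The same fit called 0.0302% of all genes, and 22 of 76 members had an unadjusted p under 0.05, against 2009 of 16537 genes. Limma voom called 0 members (0.0544% of all genes) and DESeq2 called 7, all lower (1.84% of all genes were lower). The smallest p was that of Cox7a1, the muscle isoform of subunit 7a. It was at 0.860 and 1.04 CPM in dICR/dICR myoblasts, against 3.52, 4.39, 6.04 and 5.97 CPM in wild-type myoblasts 1 to 4. The dICR/dICR values lie near 1 CPM in shallow libraries and so rest on few counts. Both dICR/dICR libraries lie below all 4 wild-type ones, shallow or deep, and the log2 fold change was -2.38 ± 0.50 (edgeR quasi-likelihood, adjusted p = 0.114).

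Within the shallow set, which holds both genotypes, 10 members were lower in dICR/dICR myoblasts and none was higher (edgeR quasi-likelihood, adjusted p under 0.05), against 3.31% of all genes called lower. Complex IV held 5 of these, complex I 4, complex V 1 and complex III 0. The median of the 76 members was -0.34 against 0.01 over all genes, and that of the 16 complex IV members was -0.90. Of the muscle isoforms, Cox7a1 fell by 2.67 ± 0.47 on the log2 scale. Cox6a2, the muscle isoform of subunit 6a, was at 3.05 and 4.04 CPM in dICR/dICR myoblasts, against 13.1 and 15.2 CPM in wild-type myoblasts 3 and 4, a difference of -2.0 ± 0.47 on the log2 scale (edgeR quasi-likelihood, adjusted p = 0.0355). Cox8b, the third muscle isoform, was at 5.86 and 7.56 CPM against 17.5 and 17.6 CPM, and was not called. Within the shallow set the groups do not overlap for any of the 3, but the deep wild-type myoblasts held 6.71 and 8.92 CPM of Cox6a2 and 4.05 and 3.83 CPM of Cox8b.

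Of the 11 ubiquitous complex IV subunits 3 fell and none rose. Cox6b1, which joins the monomers of the complex IV dimer on its outer side, was at 60.2 and 93.6 CPM in dICR/dICR myoblasts, against 257 and 244 CPM in wild-type myoblasts 3 and 4 (-1.70 ± 0.28). Cox8a was at 56.2 and 66.1 CPM against 146 and 141 CPM (-1.23 ± 0.24), and Cox5b at 14.5 and 13.4 CPM against 41.0 and 40.1 CPM (-1.53 ± 0.26). In none of these did the groups overlap. The 8 that were not called had values between -1.0 and 0.15, among them Cox6a1 at -1.0 ± 0.29, Cox4i1 at -0.44 ± 0.33 and Cox7a2 at 0.15 ± 0.29. The complex I members were accessory subunits, with Ndufa3 at -1.59 ± 0.30, Ndufv3 at -1.28 ± 0.21, Ndufa11 at -1.09 ± 0.26 and Ndufb3 at -1.09 ± 0.28. None of the 7 core subunits of complex I was called, and their median was -0.24. In complex V the c subunit gene Atp5g1 was at 12.3 and 14.3 CPM against 28.9 and 36.9 CPM (-1.31 ± 0.21), while its paralogues Atp5g2 and Atp5g3 were not called, nor were Atp5a1 and Atp5b, the catalytic alpha and beta subunits. Atp5g1, Cox5b, Ndufa11 and Ndufb3 are among the members with over 10% shared words.

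The 8 myotube markers were all lower in both dICR/dICR myoblasts than in wild-type myoblasts 3 and 4: Myog, the differentiation factor myogenin, was at 402 and 151 CPM against 1179 and 1196 CPM. Wild-type myoblasts 1 and 2 held 146 and 142 CPM of Myog with 3.52 and 4.39 CPM of Cox7a1. Ddx3y also separates these libraries, so in the shallow set the genotype cannot be told apart from what these markers and Ddx3y separate. The 10 calls became 0 when either shallow wild-type myoblast was left out, and 2 or 1 without the first or second dICR/dICR myoblast. They became 18 when wild-type myotube 1 or 2 was left out. These myotubes enter only through the spread, the scaling and the filter on low counts. Fitted alone, the shallow set gave 19 lower of 74, where 21.6% of its genes were called, 10.3% as lower. With depth set as a term for all libraries 3 members were lower, where 2.01% of all genes were called, 1.28% as lower: Cox7a1 at -2.70 ± 0.45 (edgeR quasi-likelihood, adjusted p = 0.0146), Cox5b at -1.41 ± 0.26 and Atp5g1 at -1.22 ± 0.21. These became 0 when either dICR/dICR myoblast or either shallow wild-type myoblast was left out, 8 without wild-type myotube 1, 9 without myotube 3 and 6 without myotube 5.

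**Figure D3:**
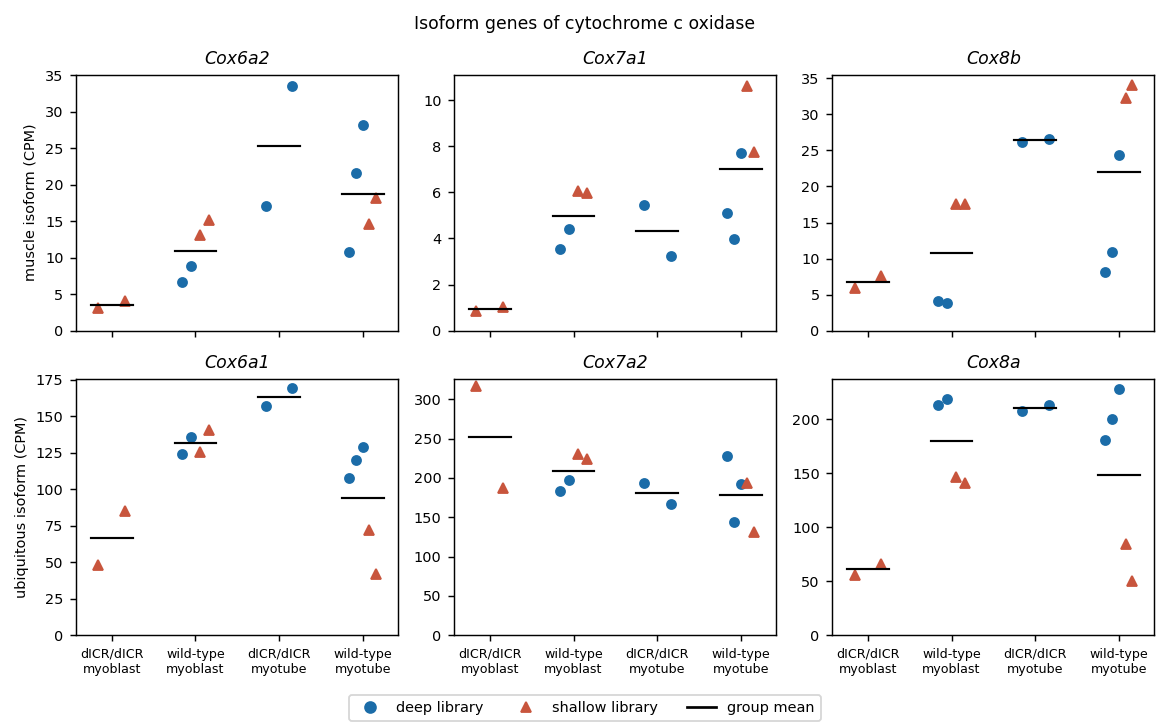
Levels (CPM, linear axes from 0) of the 3 muscle isoform genes of cytochrome c oxidase (top) and their ubiquitous partners (bottom) in the 4 groups. Points are libraries, circles deep and triangles shallow, and lines are group means. Cox7a1 was at 0.860 and 1.04 CPM in the 2 dICR/dICR myoblasts, below the other 11 libraries, and Cox8b was higher in shallow than in deep wild-type libraries of each stage.

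In myotubes no member was called between genotypes. None of 76 was called over all libraries, where 0.556% of all genes were called. An unadjusted p under 0.05 was found for 4 of 76 members and 2773 of 16537 genes. None was called with depth set as a term (2.57% of all genes), within the deep set (3.63%, or 0.709% where it was fitted alone), by DESeq2 (6.69%) or by limma voom (2.66%). The median log2 fold change was 0.25 against -0.06 over all genes, and 0.15 within the deep set. Complex V had 15 of 15 positive values with a median of 0.52, and within the deep set 14 of 15 with a median of 0.25. Over all genes 7745 of 16537 were positive, and within the deep set 7871 of 16537. Atp5j2, the f subunit of ATP synthase, had the smallest p. It was at 203 and 159 CPM in dICR/dICR myotubes, against 139, 137, 132, 113 and 109 CPM in wild-type myotubes 1 to 5. The groups do not overlap, and the log2 fold change was 0.52 ± 0.19 (edgeR quasi-likelihood, adjusted p = 0.203). Atp5j, coupling factor 6, was at 155 and 135 CPM in dICR/dICR myotubes, with 84.8, 95.4, 119, 83.1 and 87.6 CPM in wild-type ones. Uqcrq, a small complex III subunit, was at 118 and 87.7 CPM in dICR/dICR myotubes, against 34.0, 68.4, 74.5, 35.4 and 18.5 CPM in wild-type ones. Again neither pair overlapped and neither was called (0.63 ± 0.24 and 1.15 ± 0.48).

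The muscle isoforms did not differ by a called amount between genotypes in myotubes. Cox7a1 was at 5.43 and 3.26 CPM in dICR/dICR myotubes and at 5.11, 3.96, 7.69, 10.6 and 7.74 CPM in wild-type ones, and the ranges overlap (-0.68 ± 0.42). Cox6a2 was at 17.1 and 33.6 CPM in dICR/dICR myotubes and 10.8 to 28.2 CPM in wild-type ones. Cox8b was at 26.2 and 26.6 CPM, within the wild-type range of 8.08 to 34.0 CPM. Without wild-type myotube 3 there was 1 call, of a higher level, within the deep set and 1 with depth set as a term. The summed myotube markers were lower in both dICR/dICR myotubes than in any wild-type myotube, and their part in these values was not tested.

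Differentiation of wild-type cells moved fewer of these genes than of all genes past the threshold. Over all libraries 1 of 76 was called, where 19.1% of all genes were called, 10.2% as lower. The median was 0.00 against 0.02 over all genes. The 1 called was Cox6b2, the isoform of subunit 6b best known from testis. It was at 0.762, 0.636, 3.51, 0.308 and 0.407 CPM in wild-type myotubes 1 to 5, against 9.87, 7.89, 6.91 and 7.05 CPM in wild-type myoblasts. The groups do not overlap, and the log2 fold change was -2.70 ± 0.68 (edgeR quasi-likelihood, adjusted p = 0.0179). In both shallow myotubes Cox6b2 rested on 2 counts each. Its ubiquitous partner Cox6b1 was at 275, 186, 226, 137 and 90.4 CPM in myotubes and 202, 193, 257 and 244 CPM in myoblasts.

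With depth set as a term 9 members were called, 4 higher and 5 lower, a smaller share than among all genes, where 31.8% were called, 15.3% as higher and 16.6% as lower. Cox6b2 fell by 3.00 ± 0.65 and Cox8b rose by 1.44 ± 0.32 (edgeR quasi-likelihood, adjusted p = 0.00432 and 0.00532). Cox8b was at 8.08, 11.0 and 24.4 CPM in deep wild-type myotubes and at 32.3 and 34.0 CPM in shallow ones, against 4.05 and 3.83 CPM in deep wild-type myoblasts and 17.5 and 17.6 CPM in shallow ones. Myotubes lie above myoblasts within each set, but the sets overlap. The other 3 that rose were Uqcrc2, a core subunit of complex III, by 0.55 ± 0.17, and the complex I core subunits Ndufs1 and Ndufs8 by 0.49 ± 0.16 and 0.44 ± 0.15. The other 4 that fell were Uqcrq at -0.93 ± 0.32, Ndufa4, which is now counted with complex IV, at -0.64 ± 0.21, Ndufb3 at -0.64 ± 0.19 and Atp5g1 at -0.54 ± 0.14. Cox6b2, Cox8b and Atp5g1 were called in all 13 fits that left out 1 library, and the number called ranged between 3 and 13, with 3 or 4 without any 1 wild-type myoblast and 5 without wild-type myotube 5.

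In the contrasts within a set, taken from the fit to all libraries, Cox6b2 was called in both sets and the other calls in 1 set each. Within the deep set 4 members were called, where 29.1% of all genes were called, 14.3% as higher and 14.7% as lower. Among them Cox8b rose by 1.88 ± 0.41 and Cox6a2 by 1.37 ± 0.41, and Cox6b2 fell by 2.42 ± 0.74. Cox6a2 was at 10.8, 21.6 and 28.2 CPM in deep wild-type myotubes, against 6.71 and 8.92 CPM in deep wild-type myoblasts. Within the shallow set 4 members fell, where 6.98% of all genes were called, 3.25% as lower. They were Cox6b2 at -4.29 ± 1.13, Cox8a at -1.10 ± 0.24, Cox6b1 at -1.13 ± 0.28 and Cox6a1 at -1.21 ± 0.30. Cox6a1 was at 72.3 and 42.2 CPM in shallow wild-type myotubes and 126 and 140 CPM in shallow wild-type myoblasts, but at 108, 120 and 129 CPM in deep wild-type myotubes and 124 and 136 CPM in deep wild-type myoblasts. Fitted alone, the deep set gave 1 call of 76, where 22.2% of its genes were called, and the shallow set 6 of 74, where 22.6% were called. Cox8b was called in both of these fits, rising by 1.91 ± 0.49 in the deep set and 0.94 ± 0.23 in the shallow set. Cox6b2 was called in the shallow one only. A test of the difference between the sets was not run. The 4 deep calls became 0 when either deep wild-type myoblast was left out and 12 without wild-type myotube 2, and the 4 shallow calls 0 without wild-type myoblast 3 or 4 or myotube 5, 1 without wild-type myoblast 1 or 2, and 9 or 8 without wild-type myotube 1 or 2.

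In dICR/dICR cells no member was called for differentiation over all libraries, where 0.145% of all genes were called. An unadjusted p under 0.05 was found for 35 of 76 members and 3172 of 16537 genes. The median log2 fold change was 0.73 against 0.00 over all genes, and 62 of 76 members were positive, against 8287 of 16537 genes. Limma voom called 0 (0.593% of all genes) and DESeq2 called 16, all higher (3.54% of all genes were higher). Here every myotube library was deep and every myoblast library shallow, so the differentiation change and the depth set cannot be told apart without borrowing the shift from wild type. Cox7c, at 292 and 245 CPM in dICR/dICR myotubes against 5.63 and 5.86 CPM in dICR/dICR myoblasts, had a log2 fold change of 5.55 ± 2.12 here, beside -4.89 ± 0.28 between shallow and deep libraries.

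With depth set as a term 7 members rose and none fell, where 7.63% of all genes were called, 4.8% as higher. All 3 muscle isoforms were among them. Cox8b was at 26.2 and 26.6 CPM in dICR/dICR myotubes, against 5.86 and 7.56 CPM in dICR/dICR myoblasts, a change of 3.61 ± 0.57 once the shift was taken out (edgeR quasi-likelihood, adjusted p = 0.00585). Cox6a2 was at 17.1 and 33.6 CPM against 3.05 and 4.04 CPM (3.08 ± 0.62; edgeR quasi-likelihood, adjusted p = 0.0139). Cox7a1 was at 5.43 and 3.26 CPM against 0.860 and 1.04 CPM (2.86 ± 0.53; edgeR quasi-likelihood, adjusted p = 0.00939). None of the 3 had groups that overlap. Without the term none was called, with Cox6a2 at 2.84 ± 0.54, Cox7a1 at 2.20 ± 0.54 and Cox8b at 1.98 ± 0.85 (edgeR quasi-likelihood, adjusted p = 0.0569, 0.0838 and 0.240). Of the 3, Cox8b moved most with the shift taken from wild type, in which the summed myotube markers were also higher in shallow myoblasts (9570 and 10116 CPM) than in deep ones (2051 and 2033 CPM), and their part in it was not tested. The others were Cox5b at 1.61 ± 0.32, Ndufv3 at 1.44 ± 0.34, Atp5k, the e subunit of ATP synthase, at 1.17 ± 0.32 and Atp5g1 at 0.98 ± 0.26. Cox8b was called in all 13 fits that left out 1 library, and the number called was 1 when either dICR/dICR myoblast was left out, 3 without dICR/dICR myotube 2, 4 without any 1 wild-type myoblast and 16 without wild-type myotube 1.

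**Figure D4:**
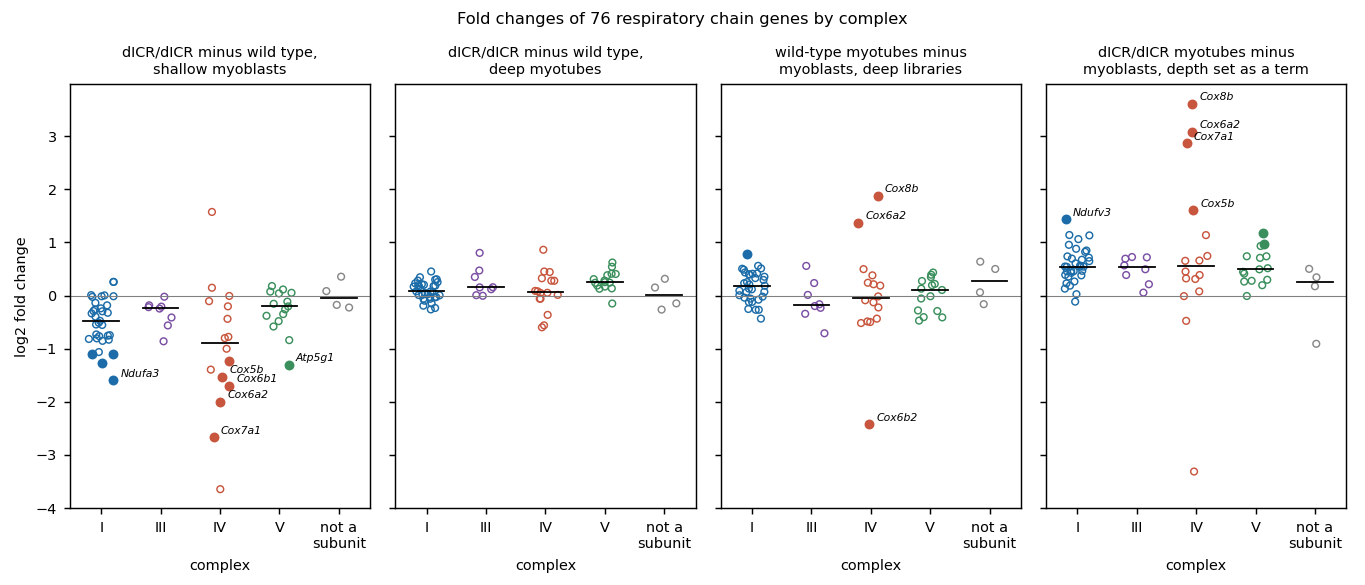
Log2 fold changes of 76 respiratory chain genes by complex in 4 comparisons, each given above its panel. Filled points passed an adjusted p of 0.05, open points did not, and lines are medians over the genes of a complex. The 10 called genes in shallow myoblasts lie below 0, none is filled for deep myotubes, and the 7 called genes in dICR/dICR differentiation lie above 0 with Cox8b, Cox6a2 and Cox7a1 highest.

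The change on differentiation was larger by a median of 0.83 in dICR/dICR than in wild-type cells, against 0.04 over all genes. In dICR/dICR cells the change sets deep myotubes against shallow myoblasts. Without the shift borrowed from wild type, the difference between genotypes cannot be told apart from the depth set. A positive difference was seen in 59 of 76 members and 8602 of 16537 genes. No member was called in the test of the difference (edgeR quasi-likelihood, 0% of all genes called). In it 30 members had an unadjusted p under 0.05, against 1643 of 16537 genes. With depth set as a term 70 of 76 members were positive with a median of 0.55, against 8219 of 16537 genes and -0.01. Again 0 were called where 0.0968% of all genes were called (1 without wild-type myotube 3). The smallest p was that of Atp5g1, at 1.52 ± 0.28 (edgeR quasi-likelihood, adjusted p = 0.0725). DESeq2 called 0 members (0.392% of all genes) and limma voom 0 (0% of all genes). The comparison uses the same dICR/dICR myoblasts and wild-type libraries as those above, so it is not further evidence for them.

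The balance between muscle and ubiquitous isoforms was read per kilobase of the median annotated transcript. Cox8b made up 13.7 and 14.9% of Cox8b plus Cox8a in dICR/dICR myoblasts 1 and 2, against 2.82, 2.60, 15.5 and 16.1% in wild-type myoblasts 1 to 4. It made up 16.2 and 16% in dICR/dICR myotubes, against 6.38, 7.72, 14.1, 37.0 and 50.9% in wild-type myotubes 1 to 5. In wild type the shallow libraries had the higher share at each stage, and Cox8a was lower in them. Cox7a1 made up 0.406 and 0.829% of Cox7a1 plus Cox7a2 in dICR/dICR myoblasts, against 2.81, 3.24, 3.78 and 3.86% in wild-type myoblasts, and the groups do not overlap. In myotubes that share was 4.04 and 2.84% in dICR/dICR and 3.25 to 8.16% in wild type. Cox6a2 made up 5.06 and 3.83% of Cox6a2 plus Cox6a1 in dICR/dICR myoblasts, against 4.35 to 8.31% in wild-type myoblasts, and 8.39 and 14.3% in dICR/dICR myotubes, against 7.75 to 26.5% in wild-type myotubes. The ubiquitous isoform thus gave most of the transcripts in 12 of 13 libraries for subunit 8 and in all 13 for subunits 6a and 7a.

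The isoforms of other tissues were rare. Cox4i2, the lung isoform of subunit 4, was at 0 to 0.625 CPM in the 13 libraries, and Cox4i1 at 266 to 735 CPM. Cox6b2 made up 1.43 and 0.310% of Cox6b2 plus Cox6b1 in dICR/dICR myoblasts, against 5.17, 4.38, 2.92 and 3.13% in wild-type myoblasts. Its level there was 0.782 and 0.261 CPM in dICR/dICR, from 10 and 2 counts, against 6.91 to 9.87 CPM in wild type. The groups do not overlap, and the log2 fold change was -3.86 ± 1.09 (edgeR quasi-likelihood, adjusted p = 0.215), or -3.64 ± 0.99 in the shallow set (edgeR quasi-likelihood, adjusted p = 0.0560).

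The members did not move as one. Over the 13 libraries the correlation of a member's log2 CPM with the mean of the other members had a median of 0.55, and was highest for Ndufb11 (0.96), Atp5o (0.95) and Cox5b (0.95) and lowest for Ndufb8 (-0.85), Ndufa10 (-0.69) and Ndufs8 (-0.64). These are descriptions over libraries that share the depth sets. Within the 7 deep libraries the median was 0.62 and within the 6 shallow ones 0.64. Together the members held 1.13 to 1.71% of the counts of a library.

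The highest mean count of any member was that of Atp5b, the catalytic beta subunit of ATP synthase, at 2102 to 3760 CPM over the 13 libraries. Of the members that are not subunits, Cox7a2l was at 74.3 and 44.3 CPM in dICR/dICR myoblasts, against 153, 151, 61.5 and 50.4 CPM in wild-type myoblasts 1 to 4. It was at 213 and 214 CPM in dICR/dICR myotubes, against 77.6 to 351 CPM in wild-type ones, and differed between shallow and deep libraries by -1.50 ± 0.24. Atp5s lay between 5.78 and 11.6 CPM and Atp5sl between 10.8 and 19.1 CPM in every library. Ndufa4l2 was at 0.155 to 1.3 CPM. These 4 had no call in any genotype or differentiation comparison over all libraries, with or without depth set as a term.

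Other genes of the pathway were followed by lists. The 13 genes encoded in mitochondrial DNA are not analysed here. The counts over all libraries in wild-type differentiation are read against the 19.1% of all genes called there, and none of the lists with 10 or more genes exceeded it. Of complex II, 0 of 4 were called in any of the 5 comparisons, with or without depth set as a term, and of 16 biogenesis regulators, 2 rose in wild-type differentiation over all libraries. These were Esrrb, an orphan nuclear receptor gene, by 1.64 ± 0.47, and Prkaa2, which encodes the alpha-2 catalytic subunit of the energy sensor AMPK, by 1.86 ± 0.49. Of 17 complex IV assembly genes 1 rose, the copper chaperone gene Sco1 by 1.46 ± 0.28. Of 5 ATP synthase assembly and inhibitor genes 1 fell, Atpif1, which encodes the inhibitor of ATP hydrolysis, by 1.05 ± 0.17. Of 22 citric acid cycle and pyruvate dehydrogenase genes 1 rose, Sucla2 by 0.73 ± 0.23. Of 21 import genes 1 fell, Timm13 by 0.71 ± 0.20, and of 13 carriers and uncoupling proteins 1 fell, Slc25a13, the aspartate-glutamate carrier citrin, by 2.42 ± 0.36. Of the assembly lists, 0 of 14 for complex I and 0 of 3 for complex III were called there.

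With depth set as a term, 2 of the 14 complex I assembly genes rose in wild-type differentiation, Ecsit by 0.55 ± 0.18 and Ndufaf3 by 0.80 ± 0.27, and 2 fell, Ndufaf2 by 0.77 ± 0.20 and Nubpl by 1.37 ± 0.31. In the same fit 5 of 21 import genes fell and none rose. They were Hspd1, the mitochondrial chaperonin, at -0.80 ± 0.18, Timm8a1 at -0.81 ± 0.22, Tomm7 at -0.80 ± 0.27, Timm13 at -0.72 ± 0.19 and Timm8b at -0.46 ± 0.16. Of 22 citric acid cycle and pyruvate dehydrogenase genes 4 rose and 2 fell. The pyruvate dehydrogenase subunits Pdhb, Pdha1 and Pdhx rose by 0.81 ± 0.17, 0.71 ± 0.21 and 0.68 ± 0.18 and Sucla2 by 0.80 ± 0.16, while Idh2 was at -0.61 ± 0.22 and Suclg2 at -1.0 ± 0.27. Of the 16 regulators 3 rose, among them Esrrg, a nuclear receptor of oxidative muscle, by 2.29 ± 0.38, and 1 fell, Gabpb2, a GABP subunit, by 0.75 ± 0.24. These shares are read against the 31.8% of all genes called in that comparison.

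Between genotypes, 1 listed gene was called over all libraries, Slc25a13, at 2.60 ± 0.40 in myotubes (edgeR quasi-likelihood, adjusted p = 0.0229). With depth set as a term, where 2.01% of all genes were called in myoblasts and 2.57% in myotubes, Ucp2, the uncoupling protein 2 gene, fell by 4.0 ± 0.65 in myoblasts and by 2.60 ± 0.52 in myotubes, and the complex I assembly gene Ndufaf3 fell by 1.82 ± 0.38 in myoblasts. Slc25a13 was again higher in dICR/dICR myotubes, by 2.31 ± 0.33. In dICR/dICR differentiation with depth set as a term, where 7.63% of all genes were called and 4.8% as higher, Esrrg and Ppara rose among 16 regulators, by 2.99 ± 0.64 and 2.59 ± 0.71. Ckmt2, the sarcomeric mitochondrial creatine kinase, and Ucp3, the muscle uncoupling protein, rose among 13 carriers and uncoupling proteins, by 4.48 ± 1.26 and 2.42 ± 0.66. Ndufaf1 and Ndufaf3 rose among 14 complex I assembly genes, by 1.35 ± 0.29 and 2.32 ± 0.47. Idh3g rose among 22 citric acid cycle genes by 0.76 ± 0.21. Of 21 import genes 2 fell, Hspd1 at -1.26 ± 0.33, and Timm8a1 at -1.67 ± 0.39.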

How the data were processed

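RNA of primary myoblasts and 24 h myotubes was depleted of ribosomal RNA, per the labels' protocols. The authors' table gives raw, unnormalised counts for each gene. Reads were aligned with TopHat2 to mm9 and counted with HTSeq, per the submitters' processing notes. Their versions, the annotation and the use of strand were not given in the sources used here. Low genes were removed by group with the filterByExpr function of edgeR 4.0.16 (R 4.3.3) at a minimum count of 10 and a minimum total of 15. TMM factors scaled the libraries, and a quasi-likelihood model of 4 group means was fitted to all 13. Tests were two-sided, with Benjamini-Hochberg adjustment over 16537 genes and a threshold of 0.05; fold changes are log2 with their standard errors (SE). The deep and shallow sets were divided at 20 M counts. Contrasts within a set came from 1 fit of group by depth set means to all libraries, added after the data were seen. Alternatives used limma 3.58.1 (voom), DESeq2 1.42.0, other scalings, no filter and leaving out each library. The fit of 4 group means was tried on simulated counts for the genotype contrast in myotubes. No shift between depth sets was simulated, so the fits that model depth set were not tested this way.

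Named members are those called in a contrast (up to 10 a direction), the 6 with the smallest p where fewer than 6 were called, alternative isoforms, core subunits and the extremes of likeness; other examples were chosen after their values were seen. Members and lists were chosen with earlier results of these data known. Shared 35-base words and transcript lengths came from GENCODE vM21 transcripts. Replicate numbers were not taken to pair libraries, since same-numbered libraries deviated from their group means with correlations between -0.41 and 0.52. One member enters the counts and is not reported by name here.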

Additional observations from a re-analysis of the deposited data

Results flagged for a closer look

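One of 80 sets of values looked at (members in groups of 4 or 5 libraries) held a library far from the others. Cox6b2 was at 3.51 CPM in wild-type myotube 3, against 0.308 to 0.762 CPM in the other 4 wild-type myotubes; chance flags about 1 in 20 such groups.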

How the results depend on the processing

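Over all libraries, 0 respiratory chain genes were called lower between genotypes in myoblasts. This number became 3 with depth set as a term and 7 with DESeq2 (1.28 and 1.84% of all genes lower). It became 19 of 74 within the shallow set fitted alone (10.3% of its genes lower, 21.6% called) and 10 in the shallow set contrast (3.31% lower). It was 0 in myotubes, and for the difference between the differentiation changes, under every setting tried, apart from the 1 call each without wild-type myotube 3 when depth set was modelled. The number called in wild-type differentiation, 1 where 19.1% of all genes were called, became 4 with library size alone (21.8%) and 2 with DESeq2 (26.7%). With depth set as a term it was 9 (31.8%), and within the shallow set fitted alone 6 (22.6%). In the shallow and in the deep set contrast it was 4 (6.98 and 29.1%). Without depth set modelled, it ranged between 1 and 2 leaving out 1 library, with 2 without wild-type myotube 1 or 2. The 0 called in dICR/dICR differentiation (0.145% of all genes) became 1 without the filter (0.184%) and 7 with depth set as a term (7.63%). That number became 16 with DESeq2 (7.36%) and 0 to 1 leaving out 1 library. The median fold change in wild-type differentiation, 0.00, became -0.29 with library size alone, where that of all genes, 0.02, became -0.26. With RLE scaling in place of TMM, 53 of 76 members were negative between genotypes in myoblasts, against 7907 of 16537 genes. In dICR/dICR differentiation 57 of 76 were then positive, against 7262 of 16537 genes. The depth set shift, 37 genes, ranged between 31 and 45. With the replicate number as a block, 2 genes were called in wild-type differentiation (18.5% of all genes) and 4 in dICR/dICR differentiation (0.605%). In each of the other comparisons 0 were called (at most 0.0181% of all genes). The replicate numbers are not shown to pair the libraries. For 30 gene and comparison pairs followed from the fit without depth set, most of them not called there, 609 values under other settings kept their direction and side of the threshold, 38 passed it anew, 1 lost it (Cox6b2 in wild-type differentiation in the deep set alone, -2.39) and 0 reversed. Of 37 gene and comparison pairs called with depth set modelled, 4 were called in all 13 fits leaving out 1 library, and the fewest was 3 of 13. Where the cause of a change is not a smaller set of libraries or genes, the cause was not tested. Depth limits genes near 1 CPM, where a shallow library holds few counts.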
